A study of Mus musculus with 9 samples.

Results

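The genes described here are 8 junction genes of brain endothelium: Cldn5, Cldn12, Ocln, Tjp1, Esam, Jam2, Cdh5 and F11r. They were found by matching the NCBI gene IDs of the count table to these symbols. All 8 had a row among the 36172 features of the table, and all 8 were among the 15144 genes that passed the filter on low counts. The list was selected on the measured counts of Cldn5, which had been seen to differ between the groups in these libraries, so the values of Cldn5 are a description, with no test. Tests are given for the other 7 members.

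Tight junctions seal the cleft between neighbouring endothelial cells, and in brain capillaries they close the path between cells so that solutes must pass through the cells. Claudins and occludin span the membrane and form the strands of the seal, junctional adhesion molecules line the contact beside them, and zonula occludens proteins tie the strands to actin inside the cell. Cldn5 encodes the leading claudin of the blood-brain barrier, and its loss in mice makes the barrier leak small molecules.

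RNA was measured in the medial prefrontal cortex of mice of the inbred strain DBA2/J, in 3 groups of 3 libraries. The group called NS was non-stressed and received saline. Both other groups went through 5 days of social defeat, a repeated exposure to an aggressor, and hold mice of the subtype that the submitters call SA:ANH, a name that the labels do not explain. One of them, SA:ANH-vehicle, received a vehicle, which the treatment labels call saline, and the other, SA:ANH-KDM5Ci, received an inhibitor of KDM5C, a demethylase of histone H3 lysine 4. The inhibitor's identity, dose and time of dosing, and the age and sex of the mice, are not in the labels. Every inhibitor-treated mouse was also stressed, so the inhibitor was not measured in non-stressed mice. Whether the 3 samples of a group are separate mice is not stated in the labels, and a p-value therefore reflects the spread among these libraries alone, which could be technical.

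Libraries held between 29845097 and 42196472 counts, which put 549 to 1400 counts of Cldn5 in a library and 174 to 335 counts of Ocln and F11r, the members of fewest counts. The endothelial label could be checked only against markers in bulk tissue: all 28 endothelial markers outside the list passed the filter, and their summed level was 807 to 856 CPM (counts scaled to a common library size) in NS, 842 to 916 in SA:ANH-vehicle and 832 to 966 in SA:ANH-KDM5Ci. Of these sums, the glucose transporter Slc2a1 alone made up 65.9 to 73.1, 79.1 to 84.8 and 136 to 163 CPM. Among the 8 members, Cldn5, Esam and Cdh5 are known as genes of endothelium, while Cldn12, Tjp1, Ocln, Jam2 and F11r are also used by other cells. In bulk tissue, fewer cells of a type and less RNA per cell cannot be told apart.

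Promoter sequence was at hand from RefSeq (GRCm38.p6) for 5 of the 8 members, as windows of 250 bases before and 50 bases after a start site. The windows of Cldn5 and Cldn12 are shown because these 2 claudins are the pair of the list whose values diverged. Cldn5 (gene 12741, chromosome 16, 18776847 to 18778262, plus strand) is a gene of 1 exon, and its window is chr16:18776597-18776896. Cldn12 (gene 64945, chromosome 5, 5505015 to 5514976, minus strand) has 3 windows in the table, and the one shown, chr5:5514927-5515226, starts at the gene's outer boundary. Both are written 5′ to 3′ on the strand of the gene, and capitals mark every match to 7 short motifs searched on both strands.
Cldn5: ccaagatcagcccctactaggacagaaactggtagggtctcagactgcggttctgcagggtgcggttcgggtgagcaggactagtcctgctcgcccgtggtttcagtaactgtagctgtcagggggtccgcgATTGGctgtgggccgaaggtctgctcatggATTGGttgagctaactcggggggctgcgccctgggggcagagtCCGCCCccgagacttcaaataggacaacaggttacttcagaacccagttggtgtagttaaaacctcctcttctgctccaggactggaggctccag
Cldn12: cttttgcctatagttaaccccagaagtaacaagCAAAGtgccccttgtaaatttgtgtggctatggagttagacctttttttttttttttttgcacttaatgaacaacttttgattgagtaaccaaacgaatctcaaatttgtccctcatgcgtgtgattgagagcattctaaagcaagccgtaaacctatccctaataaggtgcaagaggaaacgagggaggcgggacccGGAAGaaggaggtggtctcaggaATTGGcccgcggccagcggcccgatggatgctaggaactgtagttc
The cores searched for transcription factor families were ACAAT for SOX factors, GGAAG for ETS factors, TGTTT for forkhead factors and CTTTG for TCF/LEF factors. The general promoter boxes were the GC box, searched as GGGCGG, the TATA box, searched as TATAAA, and the CCAAT box. No matches overlapped in the 2 windows shown. The Cldn5 window held 1 GC box, read on the opposite strand from base -45 relative to the start site, and 2 CCAAT boxes, also on the opposite strand, from bases -118 and -88. It held no match to the SOX, ETS, FOX, TCF/LEF or TATA letters. The Cldn12 window shown held 1 ETS core from base -19 on the gene's strand. On the opposite strand it held 1 TCF/LEF core from base -217 and 1 CCAAT box from base 4. The further Cldn12 windows, chr5:5514800-5515099 and chr5:5514740-5515039, differed from it. Each held 2 ETS cores, 1 GC box, 1 CCAAT box and no TCF/LEF core. Over 32851 windows of 300 bases, the share with a match was 31.0% for the SOX core, 71.4% for the ETS core, 50.5% for the FOX core, 53.9% for the TCF/LEF core, 35.7% for the GC box, 13.6% for the TATA box and 37.4% for the CCAAT box. GC content was 58.3% in the Cldn5 window and 45.3% in the Cldn12 window shown, beside 60.7% and 66.3% in the further Cldn12 windows. A match describes letters only, and no match says only that these letters are not in this window.

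Cldn5 was lowest in the inhibitor-treated group and highest in the non-stressed group, with the stressed vehicle group between them. In NS its level was 39.6, 38.6 and 38.7 CPM in replicates 1, 2 and 3. In SA:ANH-vehicle it was 29.9, 30.2 and 30.7 CPM. In SA:ANH-KDM5Ci it was 18.7, 17.7 and 19.4 CPM. All 3 groups were separate from each other, and the gap between neighbouring groups was wider than the range within any group. Group means were 38.9 ± 0.541, 30.3 ± 0.410 and 18.6 ± 0.842 CPM (SD, n = 3). The log2 fold change was -0.36 (SE 0.05, 95% interval -0.48 to -0.25) for SA:ANH-vehicle against NS, which is a change of -22.3% on the linear scale. For SA:ANH-KDM5Ci against SA:ANH-vehicle it was -0.70 (SE 0.06, interval -0.82 to -0.58), a change of -38.4%. For SA:ANH-KDM5Ci against NS it was -1.06 (SE 0.06, interval -1.18 to -0.94), a change of -52.1%. The 3 comparisons share their groups, so the third is the sum of the other two and adds no separate measurement.

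**Figure D1:**
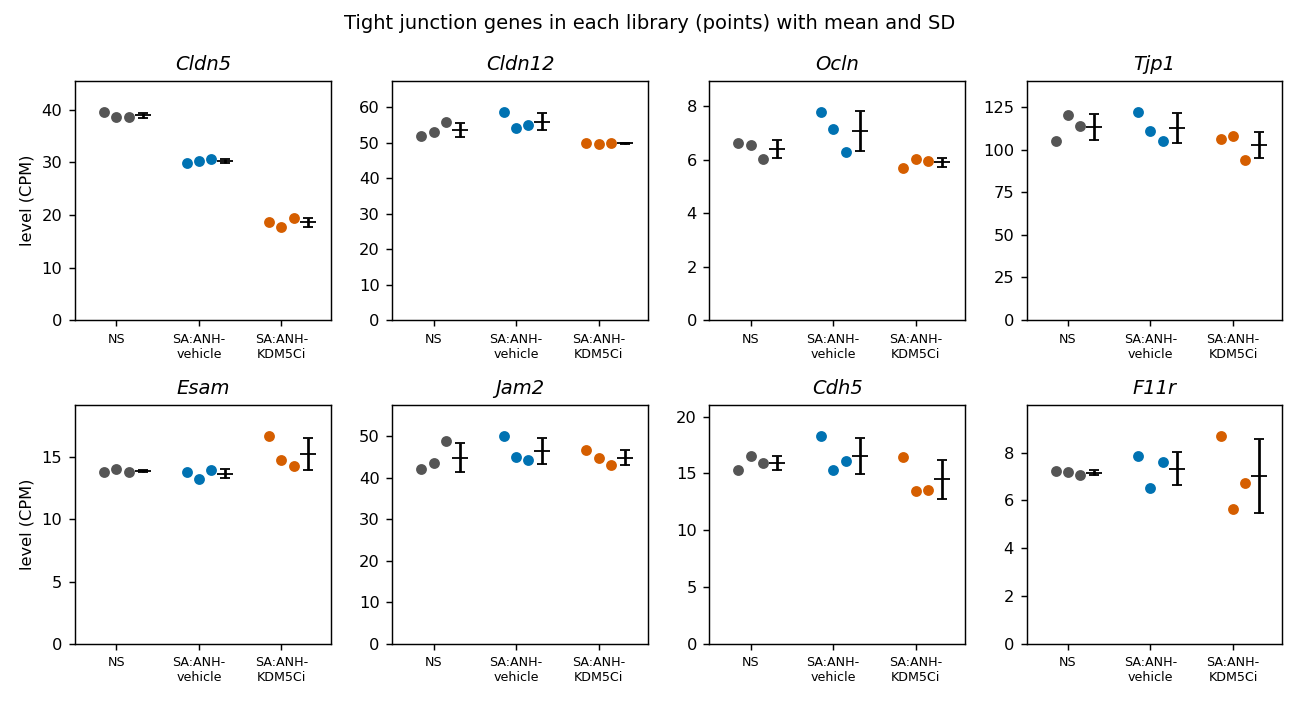
Level in CPM (vertical axes, each from 0) of the 8 junction genes in every library, by group (horizontal axes), with points for libraries and the mean ± SD of 3 libraries beside them. Cldn5 steps down from 38.9 to 30.3 to 18.6 CPM with no overlap between groups, while the NS and SA:ANH-vehicle values of each other gene overlap.

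Cldn12, a claudin that lacks the usual C-terminal motif for binding zonula occludens proteins and is found in many cell types, did not follow Cldn5. It was at 51.8, 53.0 and 55.7 CPM in NS, then 58.5, 54.0 and 54.98 CPM in SA:ANH-vehicle, and at 49.9, 49.6 and 49.9 CPM in SA:ANH-KDM5Ci. The 3 inhibitor-treated libraries lay below all 6 others, by a small margin. The log2 difference was 0.06 (interval -0.05 to 0.17, adjusted p = 0.817, here and below from the quasi-likelihood test of edgeR, adjusted by Benjamini-Hochberg over all 15144 genes) for SA:ANH-vehicle against NS. It was -0.16 (interval -0.27 to -0.06, adjusted p = 0.126) for SA:ANH-KDM5Ci against SA:ANH-vehicle and -0.10 (interval -0.21 to 0.01, adjusted p = 0.305) for SA:ANH-KDM5Ci against NS. None of these passed the threshold of 0.05. Of all values of the other 7 members under the alternative settings, the lowest adjusted p was that of Cldn12 against SA:ANH-vehicle without TMM scaling, 0.0768 at a log2 difference of -0.19.

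Ocln (gene 18260, chromosome 13, 100496504 to 100552718) encodes occludin, a membrane protein of the strands that takes part in their assembly and regulation. Its level was 6.64, 6.55 and 6.02 CPM in NS, then 7.78, 7.17 and 6.30 CPM in SA:ANH-vehicle, and 5.71, 6.04 and 5.95 CPM in SA:ANH-KDM5Ci. The inhibitor-treated libraries lay below the vehicle libraries and overlapped with NS. The difference of -0.27 on the log2 scale between SA:ANH-KDM5Ci and SA:ANH-vehicle (interval -0.49 to -0.05) had an adjusted p of 0.238 in edgeR's test, and that against NS was -0.12 (interval -0.34 to 0.10, adjusted p = 0.585). In SA:ANH-vehicle against NS its estimate was the highest of the 8 members in that comparison, 0.15 (interval -0.07 to 0.36, adjusted p = 0.774), with SA:ANH-vehicle replicate 3 inside the range of NS.

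Tjp1 (gene 21872, chromosome 7, 65296165 to 65527850) encodes ZO-1, the scaffold under the strands. Its level was 105, 121 and 114 CPM in NS, then 122, 111 and 105 CPM in SA:ANH-vehicle, and 107, 108 and 94.0 CPM in SA:ANH-KDM5Ci, with overlap between all groups. Its log2 difference was -0.01 (adjusted p = 0.994) for SA:ANH-vehicle against NS, -0.13 (0.453) for SA:ANH-KDM5Ci against SA:ANH-vehicle and -0.14 (0.329) for SA:ANH-KDM5Ci against NS.

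Of the adhesion molecules beside the strands, Esam (gene 69524, chromosome 9, 37528089 to 37538319), an endothelial immunoglobulin-type molecule, was the member with the most positive estimates after the inhibitor. It was at 13.8, 14.0 and 13.8 CPM in NS, then 13.8, 13.3 and 13.9 CPM in SA:ANH-vehicle, and at 16.7, 14.8 and 14.3 CPM in SA:ANH-KDM5Ci. The 3 inhibitor-treated libraries lay above the other 6, with replicate 1 the highest. The log2 difference was 0.16 against SA:ANH-vehicle (interval 0.00 to 0.32, adjusted p = 0.358) and 0.13 against NS (interval -0.03 to 0.29, adjusted p = 0.360), neither of which passed. Between the vehicle group and NS the Esam difference was -0.02 (interval -0.18 to 0.14, adjusted p = 0.974). Jam2 (gene 67374, chromosome 16, 84774123 to 84826380), a junctional adhesion molecule of vessels, was at 42.2, 43.5 and 48.7 CPM in NS, then 50.1, 45.1 and 44.2 CPM in SA:ANH-vehicle, and 46.7, 44.8 and 43.0 CPM in SA:ANH-KDM5Ci. Its groups overlapped throughout, and its log2 differences were 0.05, -0.05 and 0.00 in the 3 comparisons (adjusted p = 0.898, 0.783 and 0.998), with an interval of -0.15 to 0.15 for the last. F11r (gene 16456, chromosome 1, 171437561 to 171464593), which encodes JAM-A, was at 7.24, 7.19 and 7.06 CPM in NS, then 7.85, 6.52 and 7.62 CPM in SA:ANH-vehicle, and 8.69, 5.66 and 6.72 CPM in SA:ANH-KDM5Ci. Within SA:ANH-KDM5Ci it had the highest coefficient of variation of the list, 22.0%, with an SD of 1.54 CPM around a mean of 7.02 CPM. Its log2 differences were 0.03, -0.07 and -0.03 (adjusted p = 0.980, 0.881 and 0.937), and the interval against SA:ANH-vehicle ran from -0.36 to 0.23, so changes within that range cannot be told from none.

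Cdh5 (gene 12562, chromosome 8, 104101613 to 104144504) encodes VE-cadherin, the cadherin of endothelial adherens junctions. Its level was 15.3, 16.5 and 16.0 CPM in NS, then 18.3, 15.3 and 16.1 CPM in SA:ANH-vehicle, and 16.5, 13.5 and 13.5 CPM in SA:ANH-KDM5Ci. Replicate 1 was the highest library in both stressed groups, and all groups overlapped. The log2 difference was -0.20 (interval -0.40 to 0.00, adjusted p = 0.366) for SA:ANH-KDM5Ci against SA:ANH-vehicle. Against NS it was -0.14 (interval -0.34 to 0.07, adjusted p = 0.474), and for SA:ANH-vehicle against NS it was 0.06 (interval -0.14 to 0.26, adjusted p = 0.925). Leaving out 1 library at a time moved the estimate against SA:ANH-vehicle between -0.29 and -0.11.

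Set side by side, 0 of the 8 members passed edgeR's test for SA:ANH-vehicle against NS, where 0.0132% of all tested genes did, and 0 of the other 7 had an unadjusted p under 0.05, where 8.21% of all genes did. For SA:ANH-KDM5Ci against SA:ANH-vehicle 1 of 8 passed, which was Cldn5, where 2.51% of all genes did. For SA:ANH-KDM5Ci against NS 1 of 8 passed, again Cldn5, where 3.97% of all genes did. Since Cldn5 prompted the list, nothing is read from its calls. Of the other 7 members 0 passed in any of the 3 comparisons, which is near the share of all genes in each, so nothing particular to them is read from that count either. Their log2 differences ran from -0.02 to 0.15, from -0.27 to 0.16 and from -0.14 to 0.13, beside a median over all tested genes of 0.00 in each. At an unadjusted p under 0.05, Cldn12 and Ocln were lower in SA:ANH-KDM5Ci than in SA:ANH-vehicle, where 8.62% of all genes were, and 0 of the 7 differed from NS, where 18.5% of all genes did. The 95% intervals of the other 7 reached no lower than -0.49 against SA:ANH-vehicle and -0.34 against NS. Groups did not overlap for 1 of the 8 members in SA:ANH-vehicle against NS (15.1% of all genes), for 4 in SA:ANH-KDM5Ci against SA:ANH-vehicle (18.9%) and for 3 in SA:ANH-KDM5Ci against NS (23.5%), with Cldn5 in each count. The others were Cldn12 (lower) and Esam (higher) in both inhibitor comparisons and Ocln (lower) against the vehicle group.

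**Figure D2:**
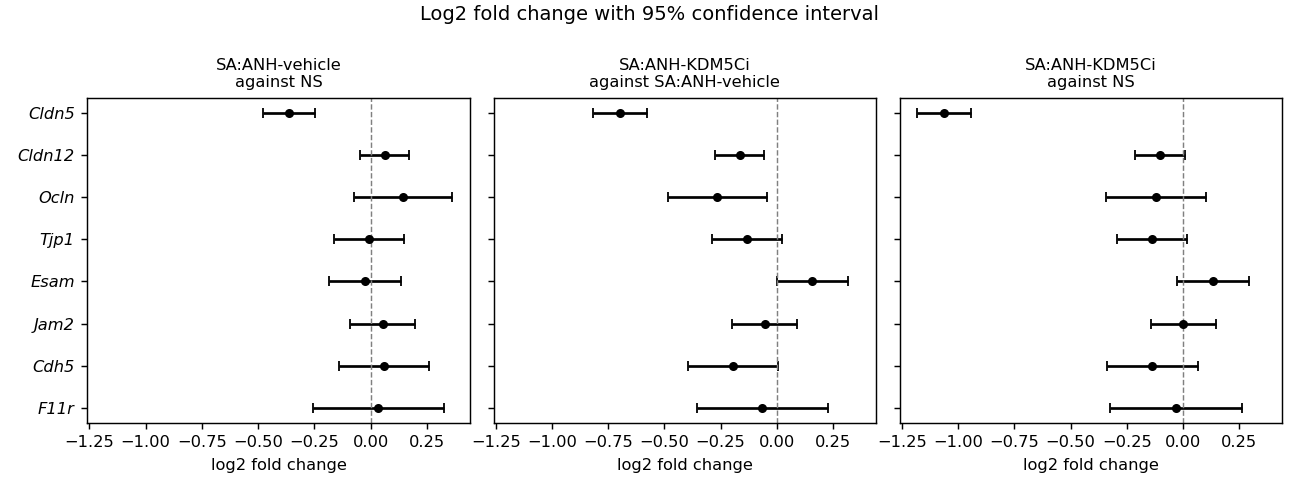
Log2 fold change (horizontal axes) of the 8 junction genes (vertical axis) in the 3 comparisons, from 1 fit of 9 libraries that the comparisons share, with bars for the 95% confidence interval. The bars of the 7 members tested reach no lower than -0.49, and Cldn5, on which the list was selected, is drawn as a description at -0.36, -0.70 and -1.06.

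The spread between libraries of a group differed widely among the members. The coefficient of variation was 1.39%, 1.35% and 4.52% for Cldn5 in NS, SA:ANH-vehicle and SA:ANH-KDM5Ci, and for the other members it ran from 0.326% (Cldn12 in SA:ANH-KDM5Ci) to 22.0% (F11r in SA:ANH-KDM5Ci). Cldn12, Tjp1 and Jam2 had 1386 or more counts in every library, while Esam and Cdh5 had 413 to 781 and Ocln and F11r had 174 to 335, so the last pair had the widest intervals.

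Per length of exon, Cldn5 was the most abundant of the 8 transcripts in NS and no longer stood apart after the inhibitor. Levels were divided by the joined exon length of each gene (GENCODE vM21), which lets different genes be compared but rests on all annotated exons being used. In NS the order in CPM per kb was Cldn5 (27.5 ± 0.382), Tjp1 (14.5 ± 0.988), Cldn12 (12.7 ± 0.478), Jam2 (7.42 ± 0.571), Esam (4.84 ± 0.0404), Cdh5 (3.78 ± 0.148), F11r (2.69 ± 0.0345) and Ocln (1.52 ± 0.0793), with no overlap between neighbours. In SA:ANH-vehicle Cldn5 was still the highest, at 21.4 ± 0.289 CPM per kb, and the ranges of Tjp1 and Cldn12 overlapped. In SA:ANH-KDM5Ci Cldn5 was at 13.2 ± 0.595 CPM per kb and overlapped with Tjp1 at 13.2 ± 0.993, while Cldn12 stood just below at 11.8 ± 0.0384. The order of the lower 5 genes was the same in the 3 groups, with Cdh5 and F11r overlapping in SA:ANH-KDM5Ci.

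**Figure D3:**
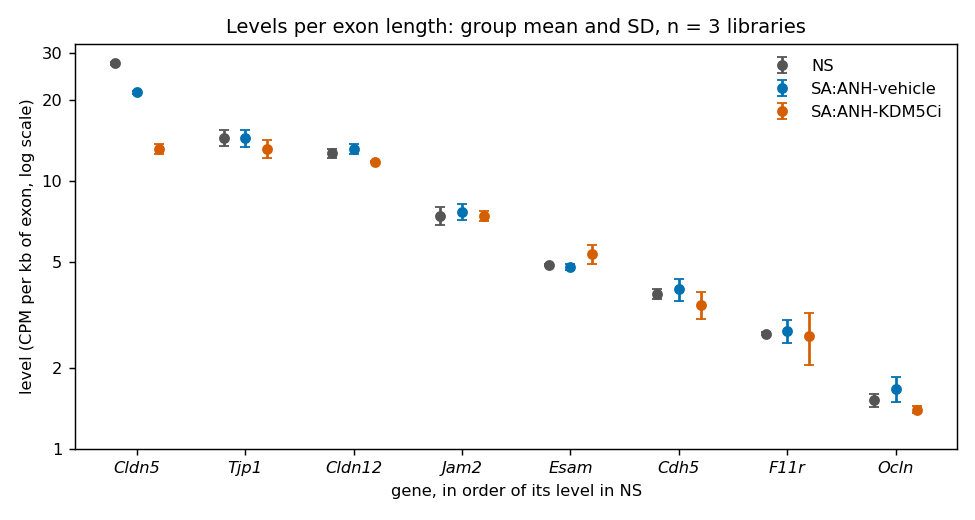
Level per kb of joined exon (vertical axis, CPM per kb on a log scale) of the 8 genes in the order of their level in NS (horizontal axis), as mean ± SD of 3 libraries per group. Cldn5 drops from 27.5 to 21.4 to 13.2 CPM per kb and so from above Tjp1 to its level.

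As a description, Cldn5 was also set against the endothelial transcripts Pecam1 and Cdh5 of the same library. Cldn5 selected the list, and the groups of these 2 transcripts overlapped. Their ratios therefore repeat the differences of Cldn5 and test nothing. Other endothelial transcripts lay in both directions, and not every ratio would step down. Kdr fell much as Cldn5 did, with means of 20.2, 16.6 and 9.32 CPM in NS, SA:ANH-vehicle and SA:ANH-KDM5Ci. Pecam1, an adhesion molecule of all endothelium, was at 20.9 ± 0.737 CPM in NS, 21.2 ± 1.97 in SA:ANH-vehicle and 21.1 ± 3.75 in SA:ANH-KDM5Ci. The ratio of Cldn5 to Pecam1 counts was 1.93, 1.77 and 1.89 in NS, 1.32, 1.37 and 1.62 in SA:ANH-vehicle, and 0.737, 0.932 and 1.03 in SA:ANH-KDM5Ci, so the 3 groups were separate. The ratio to Cdh5 was 2.34 to 2.59 in NS, 1.63 to 1.98 in SA:ANH-vehicle and 1.14 to 1.44 in SA:ANH-KDM5Ci, also without overlap. With the score of the 28 endothelial markers as a covariate, the log2 fold changes of Cldn5 were -0.36, -0.71 and -1.07 in the 3 comparisons, also as a description.

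The other claudins gave no called gene. Of 24 listed, 22 were in the table and 7 passed the filter on low counts, and 0 of 7 passed the test in any comparison, with median log2 differences of -0.09, 0.18 and 0.08. Without NS replicate 1 the count against NS was 1. Of all tested genes 0.0132%, 2.51% and 3.97% passed in the 3 comparisons. Cldn4, Cldn8, Cldn17 and Cldn34a were listed at 0 in all libraries. Cldn10, an astrocyte and epithelial claudin, was nearly the same in all groups, at 23.6 ± 1.84 CPM after the inhibitor and a log2 difference of 0.01 (interval -0.14 to 0.17) against SA:ANH-vehicle. Cldn11, the claudin of myelin, was at 61.9 ± 21.9, 72.4 ± 16.2 and 99.1 ± 11.5 CPM in the 3 groups, and its difference of 0.68 between SA:ANH-KDM5Ci and NS (adjusted p = 0.250) did not pass. Of the 12 oligodendrocyte and myelin markers, a list that holds Cldn11, 0 passed (1 without NS replicate 1) and all 12 had positive estimates in that comparison, with a summed level of 1609 to 3264 CPM in NS and 2945 to 3851 CPM in SA:ANH-KDM5Ci. Their part in the value of Cldn11 was not tested. Cldn1, a claudin of epithelia and some vessels, was at 1.43 ± 0.0982, 1.34 ± 0.297 and 1.34 ± 0.127 CPM in the 3 groups. Cldn14, Cldn20, Cldn22 and Cldn23 were at or below about 1 CPM, and their adjusted p-values against SA:ANH-vehicle ran from 0.602 to 0.855.

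Among 30 other tight junction genes, which include scaffolds, polarity proteins and tricellular proteins, 26 passed the filter. Of these 0 passed the test for SA:ANH-vehicle against NS, where 0.0132% of all genes did. In SA:ANH-KDM5Ci against SA:ANH-vehicle 1 fell, where 1.62% of all genes did. In SA:ANH-KDM5Ci against NS 1 rose, where 1.86% of all genes did. The list's medians were 0.01, -0.03 and -0.04. Counts of 0 or 1 in 26 are near these shares, so nothing particular to the list is read from them. Amotl2, an angiomotin-like protein that links junctions to actin, fell by 0.52 on the log2 scale, from 16.1 ± 2.46 to 11.3 ± 1.55 CPM (SE 0.12, adjusted p = 0.0344). Jam3, which encodes JAM-C, rose from 22.2 ± 2.11 CPM in NS to 27.7 ± 1.69 CPM (log2 0.32, SE 0.08, adjusted p = 0.0313). Both calls were lost when any 1 of several libraries was left out. That of Amotl2 was lost without any 1 of NS replicate 2, SA:ANH-vehicle replicates 1 or 2, or SA:ANH-KDM5Ci replicates 2 or 3 (adjusted p 0.0548 to 0.157). That of Jam3 was lost without any 1 of NS replicates 2 or 3, replicate 2 of SA:ANH-vehicle, or replicates 1 or 3 of SA:ANH-KDM5Ci (0.0518 to 0.149). Conversely, 1 gene of the list was called lower against NS when replicate 1 of either stressed group was left out.

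Of 17 genes of endothelial adherens junctions, 0 passed in SA:ANH-vehicle against NS, where 0.0132% of all genes did. In SA:ANH-KDM5Ci against SA:ANH-vehicle 0 passed (1 without NS replicate 1), where 2.51% of all genes did. In SA:ANH-KDM5Ci against NS 2 fell, where 2.11% of all genes did. The list's medians were 0.00, -0.01 and 0.01. Nectin3, an adhesion molecule that binds afadin, fell by 0.52, from 45.9 ± 4.31 to 32.1 ± 3.04 CPM (SE 0.08, adjusted p = 0.00278). Ctnnd1, which encodes p120-catenin, a protein that holds cadherins at the membrane, fell by 0.28, from 105 ± 7.54 to 86.0 ± 8.91 CPM (SE 0.07, adjusted p = 0.0473). The Ctnnd1 call was lost without any 1 of NS replicates 2 or 3, SA:ANH-vehicle replicates 2 or 3, or SA:ANH-KDM5Ci replicates 1 or 3 (0.0643 to 0.203). Both genes are expressed in many cell types of cortex.

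Regulators of the endothelial barrier included genes called lower in both inhibitor comparisons. The list of 48, the largest used here and with all 48 past the filter, covers transcription factors of endothelium, the Wnt and norrin pathway that induces the barrier, angiopoietin signalling and small GTPase pathways of junctions. In SA:ANH-vehicle against NS 0 of 48 passed. In SA:ANH-KDM5Ci against SA:ANH-vehicle 7 fell and 0 rose, where 1.62% of all genes fell and 0.891% rose, and the list's median was -0.08. In SA:ANH-KDM5Ci against NS 9 fell and 1 rose, where 2.11% of all genes fell and 1.86% rose, and the median was -0.06. That count of 9 was 5 without NS replicate 2, 4 without NS replicate 3 and 5 without SA:ANH-KDM5Ci replicate 3.

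The SoxF factors Sox17 and Sox18 act in endothelial identity. Sox17 was at 5.14, 6.08 and 6.36 CPM in NS, then 6.51, 6.27 and 6.44 CPM in SA:ANH-vehicle, and 4.13, 3.75 and 3.46 CPM in SA:ANH-KDM5Ci, so the inhibitor-treated libraries lay below all others. It fell by 0.77 on the log2 scale against SA:ANH-vehicle (SE 0.11, adjusted p = 0.0029) and by 0.63 against NS (adjusted p = 0.00793). Sox18 was at 8.85, 7.999 and 7.99 CPM in NS, then 7.41, 7.89 and 8.47 CPM in SA:ANH-vehicle, and 5.64, 3.68 and 4.68 CPM in SA:ANH-KDM5Ci, again without overlap, and fell by 0.76 (SE 0.13, adjusted p = 0.00706) and by 0.83 (adjusted p = 0.00316). The Sox18 call against SA:ANH-vehicle was lost with a marker score as covariate. Adjusted p-values of edgeR's test were 0.0518 with the endothelial, 0.0922 with the meningeal and 0.0624 with the blood score. The estimates of Sox18 there were -0.67, -0.97 and -0.67. The endothelial score itself holds Sox17 and Sox18, so it is not independent of either gene. Sox7, the third SoxF gene, chosen after its values were seen, had estimates of -0.74 and -0.69 that did not pass (adjusted p = 0.0602 and 0.0611). Ets1, an ETS factor of endothelium and immune cells, fell from 19.2 ± 0.467 to 12.3 ± 2.15 CPM against the vehicle group (log2 -0.65, adjusted p = 0.00476) and by 0.56 against NS (adjusted p = 0.00955, and 0.0542 without NS replicate 3).

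The forkhead genes Foxq1 and Foxf2 mark brain endothelium and its mural cells. Foxq1 fell from 4.48 ± 0.245 to 2.66 ± 0.413 CPM, or by 0.74, against SA:ANH-vehicle (SE 0.13, adjusted p = 0.00783) and by 0.64 against NS (adjusted p = 0.0158). Against NS the Foxq1 call was lost without any 1 of NS replicates 2 or 3 or SA:ANH-KDM5Ci replicates 1 or 2 (0.0516 to 0.0646). Foxf2 fell by 0.76 against NS, from 4.01 ± 0.763 to 2.38 ± 0.183 CPM (adjusted p = 0.0163, lost without NS replicate 2 at 0.0833 and without SA:ANH-KDM5Ci replicate 3 at 0.0626), and its estimate of -0.61 against SA:ANH-vehicle did not pass (adjusted p = 0.0675). Nr2f2, a nuclear receptor of venous endothelium, fell by 0.42 and by 0.38 (adjusted p = 0.0306 and 0.0416). The first Nr2f2 call was lost without any 1 vehicle library or SA:ANH-KDM5Ci replicates 2 or 3 (0.0557 to 0.133). The second was lost without any 1 of NS replicates 2 or 3, SA:ANH-vehicle replicates 2 or 3, or any SA:ANH-KDM5Ci library (0.0557 to 0.191).

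Apcdd1, a target and inhibitor of Wnt signalling in brain endothelium, was at 27.9, 29.7 and 34.3 CPM in NS, then 25.5, 27.0 and 26.9 CPM in SA:ANH-vehicle, and 18.6, 20.6 and 19.5 CPM in SA:ANH-KDM5Ci. Its 3 groups did not overlap, with the lowest NS library (27.9) close to the highest SA:ANH-vehicle library (27.0). Those 2 groups did not overlap for 15.1% of all genes. It fell by 0.44 against SA:ANH-vehicle (SE 0.08, adjusted p = 0.00789) and by 0.64 against NS (SE 0.08, adjusted p = 0.000377), and its estimate of -0.21 for SA:ANH-vehicle against NS did not pass (adjusted p = 0.487). Of the Wnt genes outside the naming rule, chosen after their values were seen, Lef1, a nuclear effector of the pathway, fell by 0.63 in both inhibitor comparisons (adjusted p = 0.0358 and 0.0291). The Lef1 call against the vehicle group was lost without any 1 vehicle library or SA:ANH-KDM5Ci replicates 2 or 3 (0.0649 to 0.148), and that against NS without any 1 of NS replicates 1 or 3 or SA:ANH-KDM5Ci replicate 3 (0.0504 to 0.139). Tnfrsf19, a receptor induced by Wnt signals, fell by 0.22 against NS (adjusted p = 0.0383, lost without any 1 of 6 libraries, namely NS replicates 2 or 3, SA:ANH-vehicle replicates 2 or 3, or SA:ANH-KDM5Ci replicates 1 or 3, at 0.0541 to 0.166). Fzd4, the receptor of norrin, went the other way: it was at 3.25, 4.65 and 5.45 CPM in NS, then 5.77, 5.77 and 3.82 CPM in SA:ANH-vehicle, and 11.5, 9.50 and 7.49 CPM in SA:ANH-KDM5Ci. It rose by 1.09 against NS (SE 0.22, adjusted p = 0.0183, lost without NS replicate 2 at 0.0631 and without SA:ANH-KDM5Ci replicate 1 at 0.0643), and its estimate of 0.88 against SA:ANH-vehicle did not pass (adjusted p = 0.0627).

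Markers of meninges and fibroblasts were lower as a sum in SA:ANH-KDM5Ci than in SA:ANH-vehicle, and that sum overlapped with NS. Their link to the regulators was not tested. All 15 listed markers passed the filter, none was at 0, and their summed level was 470 to 790 CPM in NS, 625 to 870 in SA:ANH-vehicle and 393 to 535 in SA:ANH-KDM5Ci. In SA:ANH-KDM5Ci against SA:ANH-vehicle all 15 had negative estimates (list median -0.77) and 5 passed, where 1.62% of all genes fell. Against NS all 15 were negative (list median -0.71) and 2 passed, where 2.11% of all genes fell. The first of these counts was 1 without either replicate 1 of SA:ANH-vehicle or replicate 3 of SA:ANH-KDM5Ci, 2 without SA:ANH-KDM5Ci replicate 1 or 2, and 4 to 6 without any 1 other library. The second was 7 without NS replicate 1 or SA:ANH-vehicle replicate 1, 0 without NS replicate 3, 1 without NS replicate 2, replicate 2 of SA:ANH-vehicle, or replicates 1 or 3 of SA:ANH-KDM5Ci, and 2 to 3 otherwise.

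Fitted beside the score of these markers, the 7 regulators called lower against SA:ANH-vehicle all kept negative estimates, but none passed (adjusted p 0.0922 to 0.708). Their SEs were 0.12 to 0.24, beside 0.08 to 0.14 without the covariate. Log2 differences of Sox18, Foxq1 and Lef1 were -0.97, -0.77 and -0.66 with it, beside -0.76, -0.74 and -0.63 without it, so these calls were lost with no smaller estimate. For Ets1, Sox17, Apcdd1 and Nr2f2 they were -0.58, -0.59, -0.33 and -0.24 with it, beside -0.65, -0.77, -0.44 and -0.42. Against NS, Sox18 (-1.01, adjusted p = 0.0231) and Apcdd1 (-0.55, adjusted p = 0.044) passed with the covariate. The other 7 regulators called lower there had estimates from -0.74 (Foxf2) to -0.12 (Tnfrsf19) that did not pass, and Fzd4 was at 1.56 (adjusted p = 0.052) beside 1.09. Estimates thus moved in both directions under this covariate, and its part in the lost calls was not tested.

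The calls of Amotl2, Jam3, Nectin3 and Ctnnd1 were lost as well, at estimates of -0.42, 0.23, -0.37 and -0.18 (adjusted p = 0.603, 0.463, 0.180 and 0.573). Of the endothelial genes described next, Slc2a1 passed with this covariate in both inhibitor comparisons and Kdr against NS. The call of Kdr against SA:ANH-vehicle was lost at an estimate of -0.78 beside -0.84 (adjusted p = 0.084), and that of Itm2a against NS at -0.23 beside -0.21 (adjusted p = 0.262), so neither estimate moved by more than its SE. Against SA:ANH-vehicle the estimates of Mfsd2a, Slco1a4, Cxcl12 and Cav1 were 0.33, -0.32, -0.41 and -0.34, nearer to 0 than without the covariate, and did not pass, nor did those of Slco1a4 and Cxcl12 against NS, at -0.22 and -0.34. The score ran from -0.58 to -0.46 in SA:ANH-KDM5Ci and from 0.08 to 0.72 in SA:ANH-vehicle, so the score and the treatment cannot be told apart in that comparison. The log2 fold changes of Cldn5 with the same covariate were -0.36, -0.74 and -1.09. Of the mural cell markers, which passed the filter in 13 of 13 cases, Pdgfrb and Anpep, named after their values were seen, fell against SA:ANH-vehicle (list median -0.08) and Pdgfrb against NS, and the part of mural cells in these values was not tested. Of all tested genes 1.62% fell against SA:ANH-vehicle and 2.11% against NS. The Anpep call, at an adjusted p of 0.0492, was lost without any 1 of 7 libraries (0.0675 to 0.172), all but NS replicate 1 and SA:ANH-vehicle replicate 3. The count of mural markers called against NS was 2 without SA:ANH-vehicle replicate 1.

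**Figure D4:**
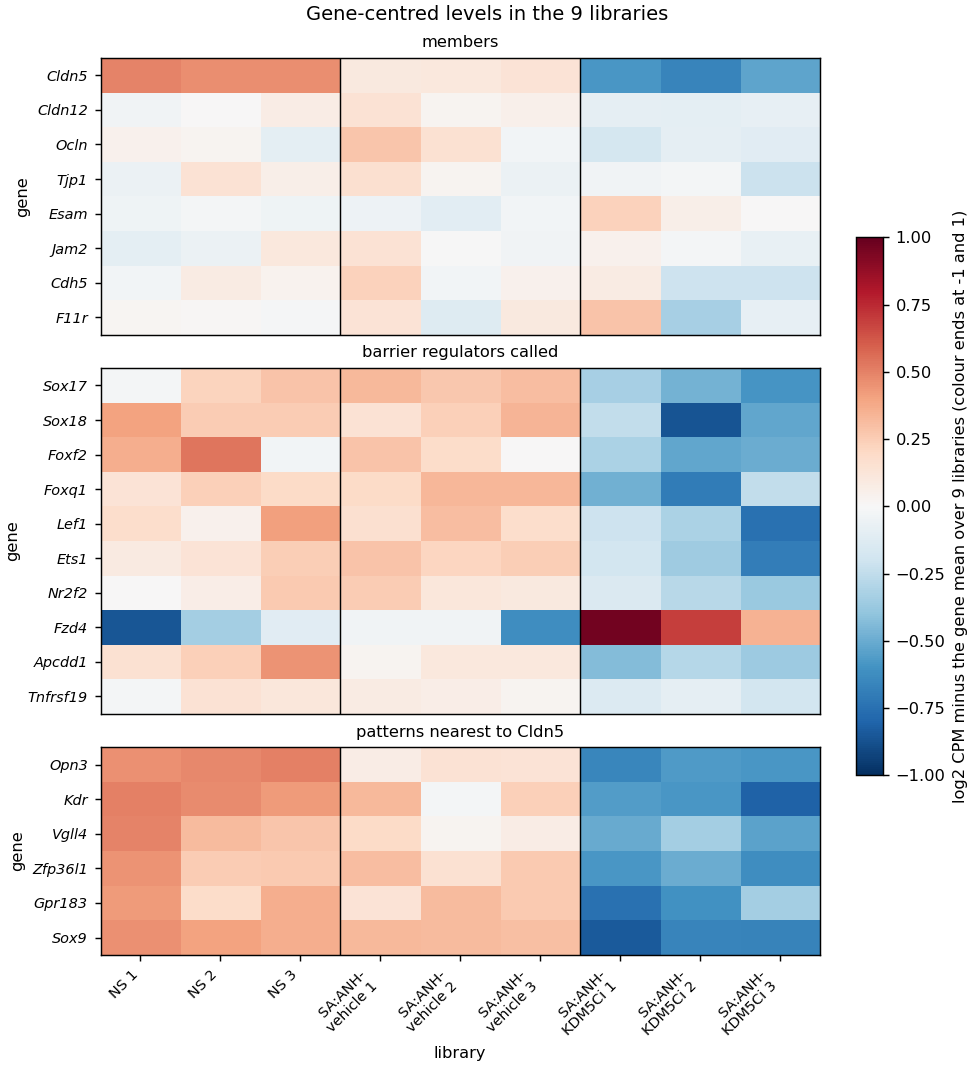
Gene-centred level (colour, log2 CPM minus the gene's mean over 9 libraries) of the 8 members, the 10 barrier regulators called in a comparison and the 6 genes nearest to Cldn5 in pattern (rows) in the 9 libraries (columns, vertical lines between groups). Cldn5 runs from 0.46 to 0.50 in NS, 0.09 to 0.13 in SA:ANH-vehicle and -0.66 to -0.53 in SA:ANH-KDM5Ci, and the other 7 members stay within -0.33 and 0.29.

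Endothelial markers outside the list that passed the test lay in both directions, and more estimates were negative than positive after the inhibitor. Negative estimates numbered 21 of 28 against SA:ANH-vehicle and 15 of 28 against NS, beside 10 of 28 for SA:ANH-vehicle against NS. Of 28, 0 passed in SA:ANH-vehicle against NS, where 0.0132% of all genes did (list median 0.04). In SA:ANH-KDM5Ci against SA:ANH-vehicle 2 rose and 4 fell, where 0.891% and 1.62% of all genes did (list median -0.13). In SA:ANH-KDM5Ci against NS 1 rose and 5 fell, where 1.86% and 2.11% of all genes did (list median -0.04). The 5 that fell against NS became 3 without any 1 of NS replicates 2 or 3 or replicate 2 of either stressed group. Slc2a1, the glucose transporter of the barrier, rose by 0.88 and by 1.12 on the log2 scale (adjusted p = 1.33e-05 and 1.01e-06) in the 2 inhibitor comparisons. Mfsd2a, a lipid transporter that restrains vesicle traffic across brain endothelium, rose from 17.9 ± 0.262 to 24.5 ± 1.07 CPM against SA:ANH-vehicle (log2 0.45, adjusted p = 0.00496). Kdr, a VEGF receptor, fell by 0.84 and by 1.12 (adjusted p = 0.00036 and 2.37e-05). Slco1a4, an organic anion transporter, fell by 0.43 and by 0.32 (adjusted p = 0.00882 and 0.0362, the second lost without any 1 of NS replicates 2 or 3, SA:ANH-vehicle replicates 2 or 3, or SA:ANH-KDM5Ci replicates 2 or 3, at 0.0524 to 0.156). Itm2a fell by 0.21 against NS (adjusted p = 0.0423, lost without any 1 library other than SA:ANH-vehicle replicates 1 or 3, at 0.0711 to 0.186). The other called markers were Sox17 and Sox18, which both lists hold.

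Of 13 tested genes of leaky or activated endothelium, 0 passed in SA:ANH-vehicle against NS, where 0.0132% of all genes did. In SA:ANH-KDM5Ci against SA:ANH-vehicle 2 fell, where 1.62% of all genes did. In SA:ANH-KDM5Ci against NS 1 fell, where 2.11% of all genes did. The count of 2 was 1 without replicate 1 of SA:ANH-vehicle or replicates 2 or 3 of SA:ANH-KDM5Ci, and 3 without replicate 3 of SA:ANH-vehicle or replicate 1 of SA:ANH-KDM5Ci. Cxcl12, a chemokine of vessels and other cells, fell from 104 ± 8.41 to 68.0 ± 8.66 CPM against SA:ANH-vehicle (log2 -0.61, adjusted p = 0.00444) and by 0.50 against NS (adjusted p = 0.010). Cav1, the coat protein of caveolae, fell by 0.58 against SA:ANH-vehicle (adjusted p = 0.016, lost without any 1 of replicate 1 of SA:ANH-vehicle or replicates 2 or 3 of SA:ANH-KDM5Ci, at 0.0625 to 0.0839). A few libraries stood apart in this list, for genes chosen after their values were seen. Lcn2, a protein of acute inflammation, was at 20.7 CPM in SA:ANH-KDM5Ci replicate 1, at 6.07 and 2.52 CPM in SA:ANH-vehicle replicates 1 and 2, and at no more than 0.743 CPM in the other 6. Vwf was at 31.1 and 29.7 CPM in replicate 1 of the 2 stressed groups. F11r, Cdh5 and Jam2 were also at their highest there within each group. Cldn12, Ocln and Tjp1 were so in SA:ANH-vehicle alone, and Esam in SA:ANH-KDM5Ci alone. The part of Vwf in these values was not tested. In replicate 1 Cldn5 was at 29.9 CPM in SA:ANH-vehicle (group range 29.9 to 30.7) and 18.7 CPM in SA:ANH-KDM5Ci (17.7 to 19.4). A link between Cldn5 and Lcn2 or Vwf was not tested.

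Blood cell markers were higher as a sum in SA:ANH-vehicle than in NS, opposite in direction to Cldn5. Their summed level was 284 to 324 CPM in NS, 494 to 561 in SA:ANH-vehicle and 447 to 589 in SA:ANH-KDM5Ci. Of 11 tested, 2 rose in SA:ANH-vehicle against NS, where 0.0132% of all genes were called in either direction. In SA:ANH-KDM5Ci against SA:ANH-vehicle 0 were called, where 2.51% of all genes were. In SA:ANH-KDM5Ci against NS 5 rose, where 1.86% of all genes did. Without NS replicate 3 the last count was 3, as the calls of Alas2 (adjusted p = 0.0541) and Hba-a1 (0.0569), both named after their values were seen, were lost, and without SA:ANH-KDM5Ci replicate 3 the first was 5. With their score as a covariate the log2 fold changes of Cldn5 were -0.38, -0.69 and -1.07.

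The patterns of the other members over the 9 libraries were set against that of Cldn5 as a description, since the values of Cldn5 selected the list. Likeness was measured as the root mean square difference of gene-centred log2 CPM over 9 libraries among 13078 genes of known symbol and at least 1 CPM on average, where a flat gene would lie at the spread of Cldn5 itself, 0.442. The other 7 members lay between 0.393 (Cdh5) and 0.508 (Esam). Cdh5, Cldn12, Tjp1 and Ocln, at ranks 1730, 1866, 1889 and 1935 of the 13078, were nearer than a flat gene, while F11r (rank 5308), Jam2 (5868) and Esam (11118) were not. The 6 nearest genes were Opn3 (0.049), Kdr (0.136), Vgll4 (0.142), Zfp36l1 (0.143), Gpr183 (0.157) and Sox9 (0.157), given as a description with no test since they were chosen for this likeness. Opn3, which encodes an opsin expressed in brain, was at 10.8, 10.98 and 11.2 CPM in NS, then 8.30, 8.73 and 8.65 CPM in SA:ANH-vehicle, and 5.02, 5.33 and 5.28 CPM in SA:ANH-KDM5Ci, with log2 differences of -0.36, -0.71 and -1.07. The gene Chml lies within Opn3, at 711 to 1129 counts beside 153 to 394 counts of Opn3, so the counting could have shared reads between them. Kdr had means of 20.2, 16.6 and 9.32 CPM, and Sox9, a factor of astrocytes, had means of 35.9, 33.6 and 16.4 CPM, with most of its difference between the 2 stressed groups.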

How the data were processed

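Medial prefrontal cortex RNA of 9 samples was sequenced after a strand-specific library preparation, per the labels' protocols. The table deposited by the authors holds expected counts of genes. The submitters' processing notes name Trimmomatic 0.32, Bowtie2 2.2.3, TopHat2 2.0.13 and the build mm10. How reads were counted, and with what annotation and strand setting, is not given in the sources used here, and a gene and an antisense partner cannot be told apart. Symbols and positions came from RefSeq (GRCm38.p6), in which 32947 of the 36172 feature IDs matched. It holds 0 columns of samples from elsewhere.

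The counts were rounded, filtered with filterByExpr and scaled by TMM (factors 0.987 to 1.01), and tested with edgeR 4.0.16 (R 4.3.3; quasi-likelihood, robust, 1 fit of all 9 libraries, 1 mean per group, Benjamini-Hochberg over 15144 genes at 0.05). The standard error is the log2 fold change divided by the square root of F, and intervals are at 95%. CPM uses TMM-scaled library sizes. The common coefficient of variation between libraries was 6.95%. Scores are means of gene-centred log2 CPM (prior count 2) over a list. The calls were tested on simulated data before use.

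The members, the gene lists and the rule for named genes were chosen with earlier results of these data known. Named were all members, every other claudin that passed the filter, the called genes of the junction, regulator, endothelial and activated lists (at most 6 of lowest p per list and comparison), and the 6 genes nearest to Cldn5. Alternatives were DESeq2 1.42.0, its size factors, limma-voom (limma 3.58.1), no TMM, other filters, thresholds and moderation, only the 2 groups compared, the replicate block, marker scores as covariates, and each library left out. The counts of the regulators and other lists under these alternatives were chosen after seeing the data. Protein sequences were not used here.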

Additional observations from a re-analysis of the deposited data

How the results depend on the processing

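Under all 22 alternatives Cldn5 kept its direction, with log2 fold changes from -0.38 to -0.35 for SA:ANH-vehicle against NS, from -0.74 to -0.66 for SA:ANH-KDM5Ci against SA:ANH-vehicle and from -1.09 to -1.03 for SA:ANH-KDM5Ci against NS. None of the other 7 members was called in any of 462 alternative values (lowest adjusted p = 0.0768), and 34 of these uncalled values changed sign. The count of members called held only Cldn5 in each case, whose counts selected the list, so it is listed as a description and supports nothing. For SA:ANH-vehicle against NS it went from 0 to 1 with library size without TMM, with no filter, with only the 2 groups compared, with the meningeal covariate, at a threshold of 0.1, with DESeq2 and with limma-voom, and over left-out libraries the count was 0 to 1, with 1 without SA:ANH-KDM5Ci replicate 1 or 3. In the other 2 comparisons it was 1 under every alternative.

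For SA:ANH-vehicle against NS, 2 genes of all tested were called by edgeR, and 11 without TMM, 11 with no filter, 17 with only the 2 groups, 7 with the meningeal covariate, 0 with the blood covariate, 15 at a threshold of 0.1 and 81 with DESeq2. Left-out libraries gave 2 to 17, with 4 without SA:ANH-vehicle replicate 1 or 3, 9 without SA:ANH-KDM5Ci replicate 1 and 17 without SA:ANH-KDM5Ci replicate 3. For SA:ANH-KDM5Ci against SA:ANH-vehicle, 380 genes became 201 with the endothelial, 22 with the meningeal and 147 with the blood covariate, 171 at 0.01 and 593 at 0.1, and 203 to 429 over left-out libraries (253, 203 and 204 without SA:ANH-vehicle replicates 1 and 2 and SA:ANH-KDM5Ci replicate 3). For SA:ANH-KDM5Ci against NS, 601 became 106 with the meningeal and 188 with the blood covariate, 227 at 0.01 and 1017 at 0.1, and 269 to 747 over left-out libraries (318, 269, 279 and 398 without NS replicates 2 and 3 and SA:ANH-KDM5Ci replicates 1 and 3).

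Barrier regulators called lower against SA:ANH-vehicle, 7 at first, were 4 with the endothelial, 0 with the meningeal and 2 with the blood covariate, 12 at 0.1 and 5 to 8 over left-out libraries. Against NS, 9 at first, they were 2 with the meningeal and 5 with the blood covariate, 4 at 0.01 and 4 to 10 over left-out libraries (5, 4 and 5 without NS replicates 2 and 3 and SA:ANH-KDM5Ci replicate 3). The estimates of the 7 against SA:ANH-vehicle all stayed negative, from -0.77 to -0.33 with the endothelial, -0.97 to -0.24 with the meningeal and -0.71 to -0.31 with the blood covariate, beside -0.77 to -0.42 without one, and all 7 had larger SEs with the meningeal and blood covariates. The endothelial score itself holds Sox17 and Sox18, which are also regulators of this list. The cause of the shifts under these alternatives was not tested. Leaving out a library changes the number of samples and the libraries held at the same time.

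Over all pairs of groups, deviations of same-numbered samples correlated at -0.144 to 0.238 and those of other numbers at -0.251 to 0.209. Between SA:ANH-vehicle and SA:ANH-KDM5Ci, same-numbered samples correlated at 0.238, 0.0839 and 0.184, and other numbers at -0.251 to 0.0851. Whether replicate numbers pair samples of the stressed groups is therefore not settled. With the replicate block, members called were 0, 1 and 1, and regulators called lower were 5 and 8. With 3 libraries a group, the widest intervals were those of the members of fewest counts, Ocln and F11r.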
